A study of Mus musculus with 8 samples.

Results

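The genes of the major histocompatibility complex (MHC) and of antigen presentation were followed in glomerular RNA of mice with and without Cd151, a tetraspanin of the cell surface. Members were taken by name from the array's table: every symbol that starts with H2-, the mouse name for the MHC, together with B2m, Tap1, Tap2, Tapbp, Cd74, Psmb8, Psmb9, Psmb10, Ciita, Psme1, Psme2, Erap1 and Calr. This rule used no measured value and found 48 of 18120 gene symbols, on 60 of 25697 probes. Cd74, Ciita and Erap1 were not listed under these symbols. By RefSeq synonyms the array names them Ii, C2ta and Arts1, and their values are given beside the members. The strain was FVB/N, the mice were males aged 3 weeks, and 4 Cd151+/+ and 4 Cd151-/- animals gave glomeruli for 1 Illumina MouseRef-8 v1.1 array each. In the Cd151-/- mice the deletion is present in every cell, not in one glomerular cell type. The preparation, pulled out of digested kidney with magnetic beads, was washed on a magnet to a set minimum purity of glomeruli per the study's methods. Glomeruli are made of podocytes, endothelial cells and mesangial cells, and RNA of tubule and blood markers was measured as well.

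Class I molecules, built from an MHC heavy chain and the light chain beta-2 microglobulin, show peptides made in the cytosol to cytotoxic T cells. The peptides are cut by the proteasome, which interferon-gamma refits with the subunits encoded by Psmb8, Psmb9 and Psmb10, pumped into the endoplasmic reticulum by the transporter of Tap1 and Tap2, and loaded with the help of tapasin and calreticulin. Class II molecules show peptides from the endosome to helper T cells and need the invariant chain and the H2-DM exchange factor. They are made by professional antigen-presenting cells and, under interferon-gamma, by other cells including those of the kidney, with Ciita as the master switch of their transcription.

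The deletion was seen on the arrays of the labelled mice. Cd151 was measured at 14.62, 14.53, 14.20 and 14.15 in Cd151+/+ mice 1 to 4 and 4.50, 4.55, 4.69 and 4.55 in Cd151-/- mice 1 to 4 on the log2 scale of background-corrected, quantile-normalised signal, the scale of every level below. All 3 Cd151 probes were detected on the 4 Cd151+/+ arrays and on none of the Cd151-/- arrays, where detected means a detection p-value of 0.05 or lower against the array's negative controls. For the brightest of them the signal was at least 523-fold lower in Cd151-/- mice.

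Of the 60 member probes, 36 were detected on at least 1 array and 27 on all 8. The 36 stand for 29 genes, counted by the symbol printed on the array. The other 24 probes, which include all probes of the other 19 symbols, were not above the background of any array. The symbols H2-T3 and H2-Tw3 are counted apart here, though RefSeq joins them as H2-T3. No member passed the test between the genotypes. At an unadjusted limma p of 0.05 or lower, 0 of the 36 member probes were higher and 0 were lower in Cd151-/- mice, where 1.69% of all 14967 tested probes were higher and 2.61% lower. After Benjamini-Hochberg adjustment 0 members passed, against 0.0334% of all tested probes, which is 5 probes. The smallest unadjusted limma p of a member was 0.0615 (adjusted p = 0.918), and the adjusted p-values of the members ran from 0.918 to 0.993. In 0 of 36 member probes were the genotypes free of overlap, a separation found in 2.31% of all tested probes. The log2 difference, Cd151-/- minus Cd151+/+, was above 0 in 17 and below 0 in 19 member probes, with a median of -0.02 over the members and -0.01 over all tested probes. Over the 32 member probes detected in both genotypes it was above 0 in 14 and below 0 in 18, with a median of -0.04. The confidence intervals set what these 8 mice could show: an interval reached 0.58 to either side of its difference on the log2 scale at the median of the members and 0.59 over all tested probes. Each limma p-value here sets a mean difference against the spread among the 4 mice of a genotype, with the variance moderated over all tested probes. That spread also holds the difference between the sets of arrays described below. In whole glomeruli fewer cells of a type cannot be told apart from less RNA per cell.

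**Figure D1:**
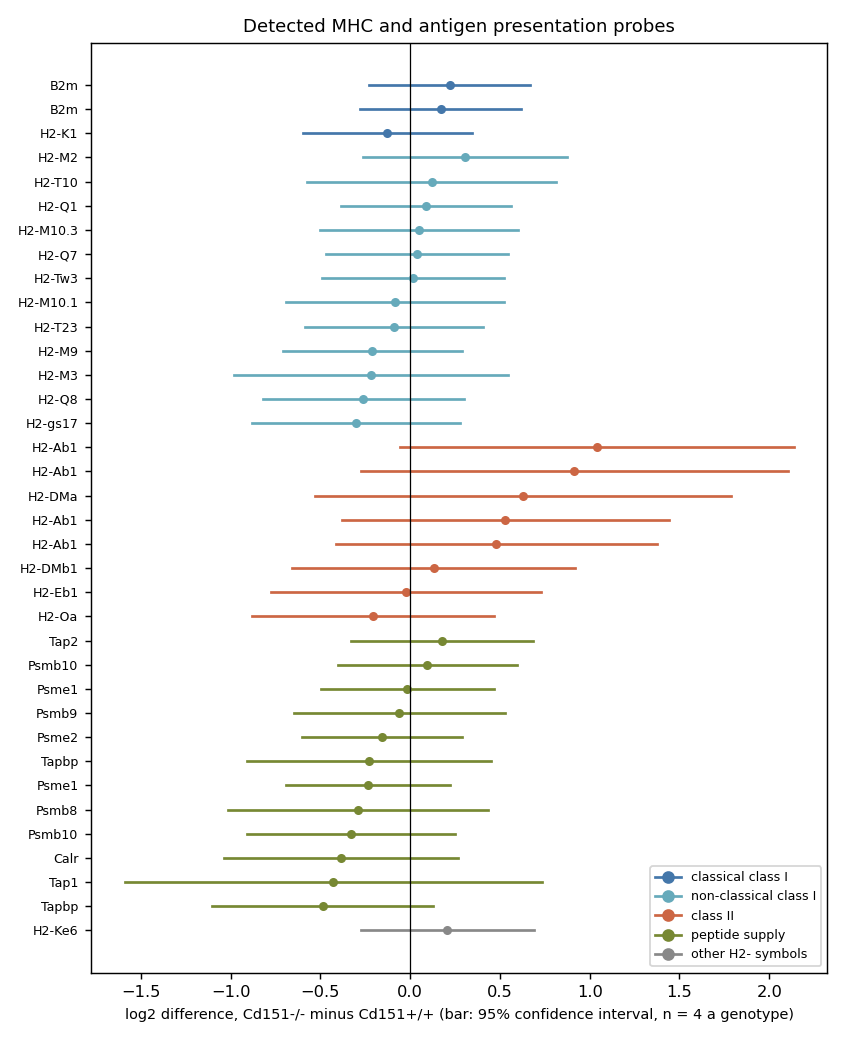
Log2 difference (horizontal axis, Cd151-/- minus Cd151+/+) of the 36 detected member probes, 1 line a probe, with the 95% confidence interval as a bar and the member group as colour. Every interval crosses 0; the point farthest to the right is an H2-Ab1 probe, at 1.04, and that farthest to the left a Tapbp probe, at -0.49.

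Class II genes had the widest confidence intervals of the member groups, reaching 0.90 to either side at the median of their probes. Their 12 probes stand for 9 genes, of which H2-Ab1, H2-DMa, H2-DMb1, H2-Eb1 and H2-Oa were detected on 8 probes, while H2-Aa, H2-Ea, H2-Ob and H2-DMb2 stayed between 4.45 and 4.92 in all mice, at background. Of the 7 probes detected in both genotypes 5 had a higher mean in Cd151-/- mice, 3 of them probes of H2-Ab1 itself, with a median log2 difference of 0.48. That median is the value of the dimmest H2-Ab1 probe, detected on 1 Cd151+/+ and 2 Cd151-/- arrays. Its levels were near background, at 4.73 to 5.38, in the Cd151+/+ mice. An eighth class II probe, also of H2-Ab1, was detected in Cd151-/- mice only and entered the test through them alone. With it, 6 of 8 probes had a higher mean in Cd151-/- mice, with a median of 0.50. The probes of H2-Ab1 weigh on these medians: with 1 probe for each of the 5 detected genes the median was 0.13. With array weights that of the 8 probes was 0.29. Of the 8 probes 0 passed the test. H2-Ab1, the beta chain of the I-A molecule, had levels of 7.83, 8.24, 7.97 and 7.67 in Cd151+/+ mice 1 to 4 and 9.03, 7.72, 8.49 and 10.62 in Cd151-/- mice 1 to 4. Cd151-/- mouse 4 was higher than every other mouse, mice 1 and 3 of that genotype also lay above every Cd151+/+ mouse, and mouse 2 lay among the Cd151+/+ mice. The log2 difference was 1.04 (95% confidence interval -0.06 to 2.14, limma p = 0.0615 and adjusted p = 0.918, exact permutation p = 0.143).

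The next H2-Ab1 probe followed the same order of mice at the top, at 7.44, 7.55, 7.19 and 6.73 in Cd151+/+ mice 1 to 4 and 8.18, 6.79, 7.66 and 9.93 in Cd151-/- mice 1 to 4, with a difference of 0.91 (95% confidence interval -0.27 to 2.10, limma adjusted p = 0.918). A further H2-Ab1 probe was detected on 0 Cd151+/+ arrays and on 2 Cd151-/- arrays, at 5.21, 5.30, 5.13 and 4.87 in Cd151+/+ mice 1 to 4 and 5.66, 5.12, 4.81 and 7.04 in Cd151-/- mice 1 to 4. It was not well above background in any Cd151+/+ mouse (limma adjusted p between the genotypes = 0.918). Its mean in Cd151-/- mice lay 1.21-fold above the background level set for the Cd151+/+ mice. The Cd151-/- arrays that did not detect it entered that mean at their own signal, so this is no firm bound. The value of 1.21 rests on Cd151-/- mouse 4, without which the Cd151-/- mean lay under that background level and no fold can be given. On all 4 H2-Ab1 probes Cd151-/- mouse 4 was the highest of the 8 mice and Cd151-/- mouse 1 the next.

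H2-DMa and H2-DMb1 encode the chains of H2-DM, which exchanges the invariant-chain fragment in the class II groove for an antigen peptide. H2-DMa was measured at 7.62, 7.69, 6.53 and 7.58 in Cd151+/+ mice 1 to 4 and 7.74, 7.10, 7.34 and 9.76 in Cd151-/- mice 1 to 4. H2-DMb1 was measured at 9.34, 8.76, 9.18 and 9.87 in Cd151+/+ mice 1 to 4 and 9.38, 8.90, 8.98 and 10.41 in Cd151-/- mice 1 to 4. For both genes Cd151-/- mouse 4 was the highest of the 8 mice and the other 3 Cd151-/- mice lay within or close to the Cd151+/+ range. The differences were 0.63 (95% confidence interval -0.53 to 1.79, limma adjusted p = 0.918) for H2-DMa and 0.13 (95% confidence interval -0.66 to 0.92, limma adjusted p = 0.958) for H2-DMb1. H2-Eb1, the beta chain of the I-E molecule, did not share this order: it had 6.69, 6.17, 5.26 and 5.34 in Cd151+/+ mice 1 to 4 and 5.60, 5.49, 6.01 and 6.28 in Cd151-/- mice 1 to 4, highest in Cd151+/+ mouse 1, with a difference of -0.02 (95% confidence interval -0.77 to 0.73, limma adjusted p = 0.993). H2-Oa, a chain of the H2-DM inhibitor H2-O, was detected on 1 array of each genotype and reached its highest level, 6.16, in Cd151+/+ mouse 1 as well.

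The invariant chain and the master switch, which the array lists as Ii and C2ta, were highest in the same mouse as H2-Ab1. Ii, on its brighter probe, was at 9.01, 9.58, 8.43 and 8.31 in Cd151+/+ mice 1 to 4 and 9.42, 8.65, 9.46 and 11.77 in Cd151-/- mice 1 to 4. Mouse 4 of the Cd151-/- group was again the highest, and the other 3 lay within the range of the Cd151+/+ mice. The difference was 0.99 (95% confidence interval -0.27 to 2.25, limma adjusted p = 0.918). The second Ii probe differed by 1.16 (95% confidence interval 0.04 to 2.28) and had a limma p of 0.0429 before and 0.918 after adjustment. C2ta was detected on 1 of 8 arrays, that of Cd151-/- mouse 4, at 5.89. In the other 7 mice its probe was not above background and lay between 4.48 and 4.86. Arts1, listed in RefSeq as Erap1 and known for trimming class I peptides in the endoplasmic reticulum, was detected on 0 arrays.

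**Figure D2:**
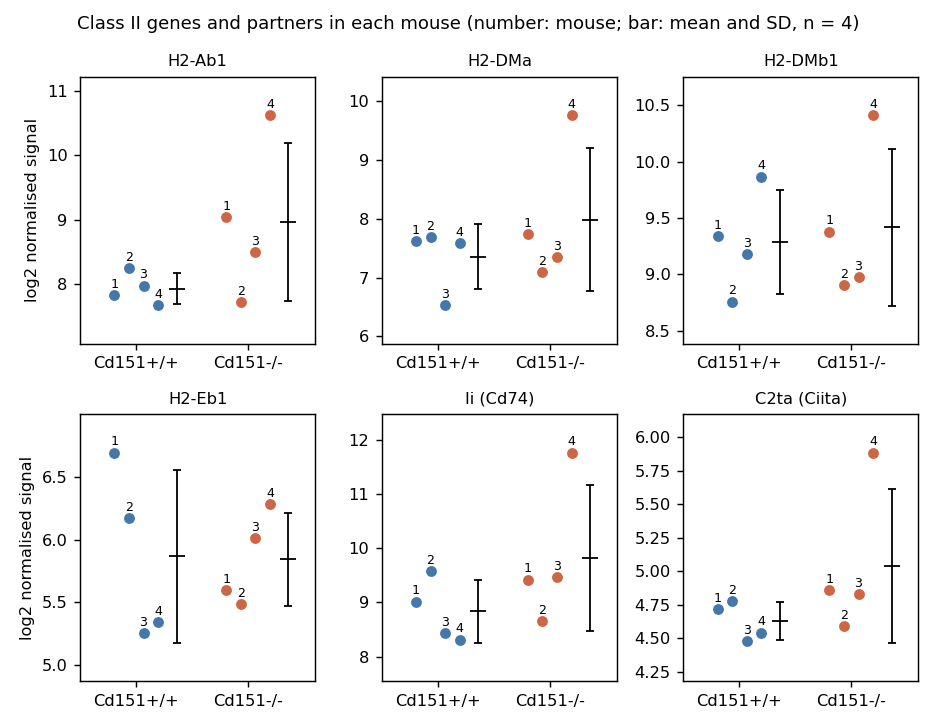
Log2 normalised signal (vertical axis) of the brightest probe of 4 class II genes and of Ii and C2ta in each of 4 Cd151+/+ and 4 Cd151-/- mice, each point labelled with its mouse number, with the mean and SD as a bar. In all panels but H2-Eb1, Cd151-/- mouse 4 is the highest point, at 10.62 for H2-Ab1 and 11.77 for Ii.

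Counted over mice, Cd151-/- mouse 4 was the highest of the 8 for 5 of the 7 class II probes detected in both genotypes and for 6 of all 8, of which 4 share the gene H2-Ab1, and for 17.1% of all tested probes. At the median it stood 1.49 above the mean of the other 7 mice on the log2 scale over those 7 probes and 1.69 over all 8, whereas the median over all 8 for the other mice ran from -0.53 in Cd151+/+ mouse 3 to 0.19 in Cd151-/- mouse 1. Mouse 4 was highest for 5 of the 7 class II probes detected in both genotypes under each of the 5 ways of correcting and scaling the signals. Without Cd151-/- mouse 2, the lowest of its genotype for H2-Ab1, the difference of the brightest H2-Ab1 probe rose to 1.46 (limma adjusted p = 0.639) and that of the next to 1.37 (limma adjusted p = 0.767). Without mouse 4, the difference of the brightest H2-Ab1 probe fell to 0.48 (95% confidence interval -0.23 to 1.20, limma adjusted p = 0.933), that of the next to 0.32 (limma adjusted p = 0.933), that of H2-DMa to 0.04 and that of the brighter Ii probe to 0.34, and H2-DMb1 turned from 0.13 to -0.20. The second Ii probe went from 1.16 to 0.59 (95% confidence interval -0.12 to 1.30, limma adjusted p = 0.933). With mouse 4 left out the median of the 7 class II probes detected in both genotypes went from 0.48 to 0.04, and 4 in place of 5 had the higher mean in Cd151-/- mice. With all mice and no background correction that median was 0.19, with an offset of 50 it was 0.30 and with scaling to the 75th percentile 0.26.

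Promoters of class II genes are known for a short module close to the start that ends in an inverted CCAAT box (read ATTGG on the strand of the gene), the site of the factor NF-Y. RefSeq promoter windows of GRCm38.p6 were at hand for 7 of the 9 class II genes on the array, H2-Ab1 not among them. In 6 of the 7 genes ATTGG lay within 120 bases before the start, and 11.9% of all 32851 windows hold it in that stretch. For H2-DMa, with 2 listed starts, it lay outside these 120 bases. The stretches of 2 genes that were detected and 2 that were not are shown from base -120 to base -1, with ATTGG in capitals, so that the place of the shared box can be read.
H2-Eb1 (chr17:34305747-34305866, plus strand): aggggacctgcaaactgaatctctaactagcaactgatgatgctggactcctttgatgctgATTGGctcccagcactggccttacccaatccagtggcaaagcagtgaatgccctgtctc
H2-DMb1 (chr17:34153071-34153190, plus strand): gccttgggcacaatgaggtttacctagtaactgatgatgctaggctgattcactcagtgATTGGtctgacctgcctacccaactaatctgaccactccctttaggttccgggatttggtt
H2-Aa (chr17:34287824-34287943, minus strand): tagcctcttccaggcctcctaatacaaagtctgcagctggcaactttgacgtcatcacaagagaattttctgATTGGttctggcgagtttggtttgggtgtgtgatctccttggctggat
H2-Ob (chr17:34238785-34238904, plus strand): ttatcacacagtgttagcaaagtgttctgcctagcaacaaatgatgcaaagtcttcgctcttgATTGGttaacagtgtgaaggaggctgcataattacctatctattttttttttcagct
The box starts at base -59 in H2-Eb1, -61 in H2-DMb1, -48 in H2-Aa and -57 in H2-Ob. Of these genes, H2-Aa and H2-Ob were not detected on any array, and H2-Eb1 and H2-DMb1 had different orders of mice. A match of letters does not show that a factor bound.

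Classical class I was represented by B2m on 3 probes and by H2-K1 and H2-D4 on 1 each. B2m, the light chain of every class I molecule, was detected on all 8 arrays with 2 of its 3 probes, and the third was at background throughout. Its brightest probe had 12.10, 11.91, 12.16 and 12.39 in Cd151+/+ mice 1 to 4 and 12.06, 12.30, 12.41 and 12.47 in Cd151-/- mice 1 to 4. The genotypes overlapped, with 3 of the 4 Cd151-/- mice above 3 of the 4 Cd151+/+ mice. The difference was 0.17 (95% confidence interval -0.28 to 0.62, limma p = 0.426 and adjusted p = 0.918, exact permutation p = 0.286). The other detected B2m probe gave 0.22 (95% confidence interval -0.23 to 0.67, limma adjusted p = 0.918), so that values outside -0.28 to 0.67 on the log2 scale lay outside both intervals. H2-K1, a heavy chain that presents peptide in nearly every cell, was above background on 1 array of each genotype only, at 4.89, 5.49, 5.05 and 5.11 in Cd151+/+ mice 1 to 4 and 5.27, 4.89, 4.92 and 4.95 in Cd151-/- mice 1 to 4, and H2-D4 on 0 arrays. MHC genes differ between strains and share long stretches with their neighbours, and the probe sequences were not used here, so whether these probes match the FVB/N alleles was not tested and a dim probe is no measure of the protein's gene as a whole.

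The promoter of B2m is shown because this gene is the common partner of all class I chains and was measured on all arrays, and because it carries, beside an ATTGG, the letters GAAANNGAAA to which interferon regulatory factors are known to bind. That motif, searched on both strands within 250 bases before the start, was found in 2.98% of all windows and, among the members with a window, in B2m and H2-T23. In the stretch from base -150 to base -1 both motifs stand in capitals, the first at base -139 and ATTGG at base -53.
B2m (chr2:122147537-122147686, plus strand): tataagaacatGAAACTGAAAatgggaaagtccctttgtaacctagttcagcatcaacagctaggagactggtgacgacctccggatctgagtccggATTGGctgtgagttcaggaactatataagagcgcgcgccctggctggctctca

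Non-classical class I genes, the H2-Q, H2-T and H2-M genes with narrower or other roles, made up 29 probes of 25 genes. Of these, 12 probes of 12 genes were detected and 17 were not. Among the 9 probes detected in both genotypes 4 had a higher and 5 a lower mean in Cd151-/- mice, with a median log2 difference of -0.09, and 0 of the 12 passed the test. H2-T23, which encodes the Qa-1 ligand of natural killer cell receptors, was at 5.85, 6.08, 6.54 and 5.98 in Cd151+/+ mice 1 to 4 and 5.72, 6.05, 6.09 and 6.24 in Cd151-/- mice 1 to 4, with a difference of -0.09 (95% confidence interval -0.59 to 0.41, limma adjusted p = 0.955). The groups overlapped, with Cd151-/- mouse 1 the lowest and Cd151+/+ mouse 3 the highest of the 8. H2-M3, which presents formylated peptides, had 9.16, 9.39, 8.24 and 8.27 in Cd151+/+ mice 1 to 4 and 8.05, 8.17, 9.19 and 8.77 in Cd151-/- mice 1 to 4. H2-T10, an empty class I relative known as a ligand of gamma-delta T cells, had 9.94, 10.05, 9.35 and 9.84 in Cd151+/+ mice 1 to 4 and 9.57, 9.31, 10.06 and 10.73 in Cd151-/- mice 1 to 4. Cd151-/- mouse 4 was again the highest for H2-T10. Neither H2-M3, at -0.22 (limma adjusted p = 0.925), nor H2-T10, at 0.12 (limma adjusted p = 0.958), differed between the genotypes beyond the spread of the mice, and H2-T10 turned to -0.15 without Cd151-/- mouse 4. The H2-M3 difference nearly vanished without Cd151+/+ mouse 2 and grew without Cd151-/- mouse 3. H2-gs17, a class I gene that RefSeq names Gm8909, was detected on all arrays and had the lowest difference of the 12, -0.30 (95% confidence interval -0.88 to 0.28, limma adjusted p = 0.918). That value and its rank rest on single mice. Cd151-/- mouse 2 was the lowest of the 8, at 11.21, and Cd151-/- mouse 3 the highest, at 12.23. Without mouse 2 the H2-gs17 difference was smaller and no longer the lowest, and without mouse 3 it was larger. The others were H2-Q1, H2-Q7, H2-Q8, H2-M10.1 and H2-Tw3, each detected in both genotypes with differences from -0.26 for H2-Q8 to 0.09 for H2-Q1, and H2-M2, H2-M9 and H2-M10.3, each detected on 1 array in all, for which no fold is given. The undetected probes were those of H2-Bl, H2-M1, H2-M10.2, H2-M10.4, H2-M10.5, H2-M10.6, H2-M11, H2-Q2, H2-Q5, H2-Q10, H2-T3, H2-T17 and H2-T24, with a second probe of H2-M10.1 and of H2-T23. H2-Tw3, detected on 2 arrays of each genotype, is named H2-T3 by RefSeq, so that gene had 1 detected and 1 undetected probe.

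Genes of peptide supply and loading were detected throughout, with 12 of 12 probes, of 9 genes, above background on all 8 arrays. Here 10 of 12 probes had a lower and 2 a higher mean in Cd151-/- mice, the median difference was -0.23, and 0 passed the test. Without Cd151-/- mouse 2 that median was -0.10. Scaling each array to its 75th percentile left 9 of 12 lower. Tapbp encodes tapasin, which holds class I molecules at the peptide transporter. Its brighter probe had 9.45, 8.91, 8.87 and 8.60 in Cd151+/+ mice 1 to 4 and 8.27, 8.10, 9.13 and 8.39 in Cd151-/- mice 1 to 4. Cd151-/- mice 1, 2 and 4 were below all Cd151+/+ mice, while mouse 3 lay among them. The difference was -0.49 (95% confidence interval -1.10 to 0.13, limma p = 0.109 and adjusted p = 0.918, exact permutation p = 0.171). The dimmer Tapbp probe gave -0.23 and had its highest value, 6.68, in Cd151-/- mouse 4, so the probes of this gene disagree on the mice.

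The transporter genes had differences of opposite sign. Tap1 had 7.92, 7.82, 6.06 and 6.57 in Cd151+/+ mice 1 to 4 and 5.80, 5.96, 7.86 and 7.05 in Cd151-/- mice 1 to 4, a wide spread that did not follow the genotype, with a difference of -0.43 (95% confidence interval -1.59 to 0.73, limma adjusted p = 0.918). Leaving out 1 mouse moved it to -0.15, -0.19 or -0.77 without Cd151+/+ mouse 1, 2 or 3, and to -0.14, -0.18 or -0.83 without Cd151-/- mouse 1, 2 or 3, and it was -0.25 without background correction. Tap2 had 10.06, 10.09, 10.78 and 10.05 in Cd151+/+ mice 1 to 4 and 10.46, 10.34, 10.26 and 10.63 in Cd151-/- mice 1 to 4, with Cd151+/+ mouse 3 apart from the other 3 mice of its genotype, and a difference of 0.18 (95% confidence interval -0.33 to 0.68, limma adjusted p = 0.920), which was 0.35 without that mouse and 0.11 without Cd151-/- mouse 4. Calr, for calreticulin, the chaperone of newly made class I heavy chains, had 9.79, 10.03, 10.67 and 10.75 in Cd151+/+ mice 1 to 4 and 9.84, 10.53, 9.61 and 9.70 in Cd151-/- mice 1 to 4. Its Cd151+/+ mice fell into a lower and a higher pair, and 3 of the 4 Cd151-/- mice lay with or below the lower pair. The difference was -0.39 (95% confidence interval -1.04 to 0.26, limma adjusted p = 0.918), and ran from -0.24 without Cd151+/+ mouse 4 to -0.59 without Cd151-/- mouse 2.

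The inducible subunits of the proteasome, Psmb8, Psmb9 and Psmb10, replace the standard catalytic subunits in the immunoproteasome. Psmb8 had 7.59, 7.15, 7.38 and 6.56 in Cd151+/+ mice 1 to 4 and 6.76, 6.15, 7.57 and 7.05 in Cd151-/- mice 1 to 4. Cd151-/- mouse 2 was the lowest and mouse 3 level with the highest Cd151+/+ mice. Psmb9, which shares its start region head to head with Tap1, had 7.15, 6.47, 7.34 and 7.10 in Cd151+/+ mice 1 to 4 and 7.37, 7.07, 6.91 and 6.47 in Cd151-/- mice 1 to 4 and did not repeat the spread of Tap1. Psmb10 had 11.08, 11.15, 11.55 and 10.84 in Cd151+/+ mice 1 to 4 and 11.54, 11.28, 11.22 and 10.97 in Cd151-/- mice 1 to 4 on its brighter probe. Its other probe had 11.38, 11.55, 11.03 and 10.61 in Cd151+/+ mice 1 to 4 and 10.64, 10.52, 11.22 and 10.88 in Cd151-/- mice 1 to 4. The differences were -0.29 for Psmb8, -0.06 for Psmb9, and 0.10 and -0.33 for the Psmb10 probes, whose signs disagree, with adjusted limma p-values of 0.918, 0.972, 0.955 and 0.918. With 1 mouse left out Psmb8 ran from -0.05, without Cd151-/- mouse 2, to -0.52, without Cd151-/- mouse 3 (-0.17 with all mice and no background correction), and the dimmer Psmb10 probe from -0.19, without Cd151+/+ mouse 2, to -0.51, without Cd151+/+ mouse 4.

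Psme1 and Psme2 encode the PA28 cap that opens the proteasome core. Psme1 had 11.80, 11.69, 11.79 and 11.87 in Cd151+/+ mice 1 to 4 and 12.13, 11.95, 11.58 and 11.42 in Cd151-/- mice 1 to 4, with the Cd151-/- mice on both sides of the Cd151+/+ range. Psme2 had 9.91, 9.75, 9.80 and 9.78 in Cd151+/+ mice 1 to 4 and 9.43, 9.46, 9.89 and 9.83 in Cd151-/- mice 1 to 4. The Psme2 values of Cd151-/- mice 1 and 2 lay below, and those of mice 3 and 4 within, the narrow Cd151+/+ range. The differences were -0.02 (95% confidence interval -0.50 to 0.47, limma adjusted p = 0.992) and -0.16 (95% confidence interval -0.60 to 0.29, limma adjusted p = 0.918). A second Psme1 probe differed by -0.23.

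**Figure D3:**
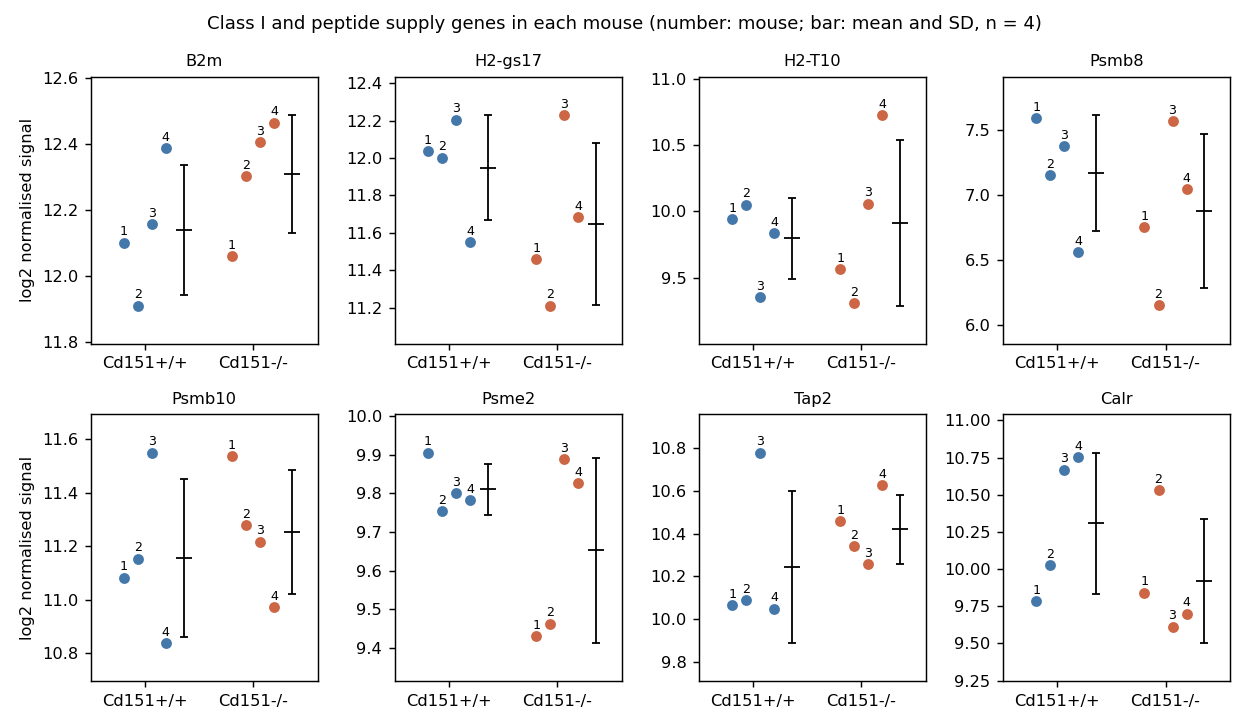
Log2 normalised signal (vertical axis) of the brightest probe of 8 class I and peptide supply genes in each mouse, labelled by mouse number, with the mean and SD of the 4 mice of a genotype as a bar. The genotypes overlap in every panel, as for B2m, at 11.91 to 12.39 in Cd151+/+ and 12.06 to 12.47 in Cd151-/- mice.

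Of the remaining H2- symbols, which do not present antigen, H2-Ke6, a steroid dehydrogenase gene inside the MHC, was detected on all arrays and differed by 0.21 (95% confidence interval -0.28 to 0.69, limma adjusted p = 0.918). Cd151-/- mouse 3, at 11.82, lay apart below the other mice of its genotype, and the difference was larger without it. H2-Bf, complement factor B, was detected on 0 arrays.

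The arrays themselves fell into sets that cut across the genotypes. Inferred background fell into a lower set, 59.0 to 69.5 signal units with mice 1 and 2 of Cd151+/+ beside mice 3 and 4 of Cd151-/-, and a higher set, 123 to 135, with mice 3 and 4 of Cd151+/+ beside mice 1 and 2 of Cd151-/-. The sets also differed in the number of detected probes, 11291 to 11381 in the lower and 11800 to 12359 in the higher set. Their median signals were 65.7 to 77.4 and 143 to 164. The files name no slide or scan, so whether the arrays of a set shared one is not known. Tap1, H2-M3, H2-T10 and H2-Eb1 were higher on each array of the lower set than on any array of the higher set, 4 of 36 members, where 11.6% of all tested probes do so, a like share that marks nothing particular to the members. The opposite, the higher set above, was found in 0 of 36 members and 13.6% of all tested probes. For Tap1 the sets differed by 1.57 on the log2 scale, and the genotypes by -0.42 within the lower and -0.44 within the higher set. For H2-M3 the sets differed by 0.95 and the genotypes by -0.29 and -0.15 within them. H2-T10 and H2-Eb1 differed by 0.68 and 0.87 between the sets and changed sign within them, at 0.40 and -0.16 for H2-T10 and -0.29 and 0.24 for H2-Eb1 in the lower and the higher set. Without background correction the sets differed by 0.92 for Tap1 and 0.38 for H2-Eb1, and with an offset of 50 by 0.55 for H2-Eb1.

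With the background set blocked in the limma fit, 2 of 36 members had an unadjusted p of 0.05 or lower, against 11.3% of all tested probes, and 0 passed adjustment (smallest adjusted p of a member 0.436). These were the brighter probe of Tapbp (limma adjusted p = 0.436), which differed by -0.42 within the lower and -0.55 within the higher set, and the brightest of H2-Ab1 (limma adjusted p = 0.441), at 1.52 and 0.56. Both members had the same sign in both sets, with 2 mice a genotype in each. They were picked by this fit, which favours a like sign in the sets, so the sign is no separate support. Tap1 and H2-M3, not picked, had the same sign in both sets too. The H2-Ab1 value of 1.52 in the lower set includes Cd151-/- mouse 4.

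**Figure D4:**
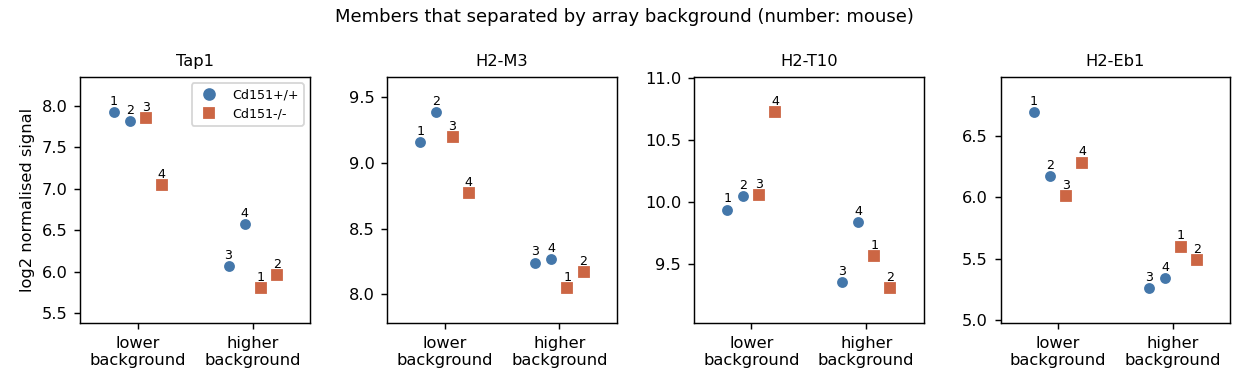
Log2 normalised signal (vertical axis) of Tap1, H2-M3, H2-T10 and H2-Eb1 by the background of the array (horizontal axis, lower or higher set, 4 arrays each), with circles for Cd151+/+ and squares for Cd151-/- mice, labelled by mouse number. In each panel all 4 arrays of the lower set lie above the 4 of the higher set, and each set holds both genotypes, a pattern found in 11.6% of all tested probes.

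Upstream of the members, 20 detected probes of 12 genes of interferon-gamma signalling and MHC gene control were tested. Of these 0 were above and 1 was below 0 at p of 0.05 or lower before adjustment, 0 passed adjustment, and the median difference was -0.14 over the 18 detected in both genotypes. The 1 was a probe of Irf1, the interferon-induced activator of class I and immunoproteasome genes, at 9.04, 8.28, 8.22 and 8.09 in Cd151+/+ mice 1 to 4 and 7.76, 8.25, 7.69 and 7.24 in Cd151-/- mice 1 to 4. The difference was -0.67 (limma adjusted p = 0.918). All 4 Irf1 probes were lower at the mean in Cd151-/- mice, 2 others at -0.51 and -0.64, and the brightest at -0.17. Cd151-/- mouse 4, highest for class II, was the lowest of the 8 for 3 of the 4 Irf1 probes. Rfxank, part of the factor that binds class II promoters, differed by -0.44 (limma adjusted p = 0.918). Ifng itself was detected on 1 array with each of its 2 probes.

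Of 17 detected probes of 10 interferon-induced genes, 0 passed an unadjusted p of 0.05 in either direction, and of the 15 detected in both genotypes 8 were higher and 7 lower, with a median of 0.01. Cxcl10, a chemokine that draws T cells, had 7.50, 6.70, 5.90 and 6.30 in Cd151+/+ mice 1 to 4 and 7.83, 5.82, 7.08 and 9.98 in Cd151-/- mice 1 to 4. It shared with H2-Ab1 the highest value in Cd151-/- mouse 4 and the next in mouse 1, at a difference of 1.08 (95% confidence interval -0.50 to 2.66, limma adjusted p = 0.918), which was 0.31 without Cd151-/- mouse 4 (limma adjusted p = 0.933). Irgm, a GTPase of defence within cells and the brightest gene of the list, had the same order at the top on its brightest probe, at 11.10, 10.92, 11.31 and 11.09 in Cd151+/+ mice 1 to 4 and 11.46, 10.96, 11.13 and 11.59 in Cd151-/- mice 1 to 4, with a difference of 0.18 (95% confidence interval -0.30 to 0.66, limma adjusted p = 0.918). Its second detected probe was highest in Cd151-/- mouse 4 too, at 9.19, with Cd151+/+ mouse 1 next. Without Cd151-/- mouse 4 the probes differed by 0.08 and -0.06. The summed linear signal of the list, 1 probe a gene, was 6302, 5209, 4578 and 4699 in Cd151+/+ and 5152, 3635, 5810 and 7299 in Cd151-/- mice 1 to 4, highest in Cd151-/- mouse 4. That order came from Irgm and Cxcl10: over the 8 other genes the sum was highest in Cd151+/+ mouse 1, at 3933, against 3206 in Cd151-/- mouse 4. The sum over these 8 genes separated by the background of the arrays, at 3170 to 3933 on the lower set and 1580 to 2437 on the higher set. Of the 17 probes 7 were highest in Cd151+/+ mouse 1, 4 each in Cd151-/- mice 1 and 4, and 1 each in Cd151+/+ mouse 3 and Cd151-/- mouse 3. Ifit3, with -0.52 on its brightest probe and 0.10 on the next, was highest in Cd151+/+ mouse 1 on both, its dimmest probe was above background on 1 array, and Cxcl9 was above background in 2 Cd151-/- mice only. The Oasl2 probes differed in sign, at -0.56 for the brighter, detected on all 8 arrays, and 0.33 for the dimmer, detected on 3. Costimulation was measured by Cd40, at -0.14, and Cd86, at 0.07, the latter detected on 1 array of each genotype, and Cd80 was not detected.

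Of 6 detected probes of 5 genes of loading and lysosomal proteolysis, 1 was below and 0 were above 0 before adjustment at p of 0.05 or lower, with a median of 0.07 over the 5 detected in both genotypes. Ctsl, the cathepsin that trims the invariant chain in thymic epithelium, was the 1, at -0.57 (limma adjusted p = 0.918). Lgmn, a protease of the endosome that is abundant in proximal tubule, had 11.83, 12.33, 12.66 and 12.85 in Cd151+/+ mice 1 to 4 and 13.35, 12.48, 12.73 and 13.75 in Cd151-/- mice 1 to 4, again highest in Cd151-/- mouse 4 and next in mouse 1. Its difference was 0.66 (95% confidence interval -0.06 to 1.38, limma adjusted p = 0.918), and 0.43 without Cd151-/- mouse 4. Ctss, the cathepsin that trims the invariant chain in antigen-presenting cells, was above background in 2 Cd151-/- mice only, and Grp58, a partner of calreticulin, differed by 0.19. The standard proteasome, 18 detected probes of 14 genes, had 0 probes past an unadjusted p of 0.05 and a median of 0.03. Psma3 (0.81), Psmb1 (0.41), Psme3 (-0.30) and Psmb7 (-0.31) had its smallest p-values, all with an adjusted limma p of 0.918.

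Because class II is made by leukocytes and can be made by tubule cells, marker lists were read beside it. Of 17 leukocyte markers that were read, Ptprc, Emr1, Itgam, Itgax, Cd79a and Fcer1g were not detected on any array, and 11 were detected, on 15 probes. Their summed linear signal, 1 probe a gene with Lyz the brightest, was 3022, 3777, 5777 and 3979 in Cd151+/+ mice 1 to 4 and 4233, 5944, 3516 and 3416 in Cd151-/- mice 1 to 4. These sums separated by the background of the arrays: the 4 of the lower set, to which Cd151-/- mouse 4 belongs, were all below the 4 of the higher set, and Lyz itself was higher on every array of the higher set. Within the lower set Cd151-/- mouse 4 lay between the Cd151+/+ mice. Of the 15 probes 0 were past p of 0.05 upwards and 1, of Coro1a, downwards before adjustment, at a difference of -0.63 (limma adjusted p = 0.918). The means of 7 leukocyte probes were higher and of 8 lower in Cd151-/- mice. Cd3g and Cd3e, of the T cell receptor complex, differed by -0.55 and -0.45, and Cd52 by -0.25. Of the genes of myeloid cells Cd68 differed by 0.29, Lyz by 0.25, Cd14 by 0.09, Tyrobp by 0.01, Lyzs by -0.14 and Csf1r by 0.02 and -0.37 on its 2 probes. Laptm5 differed by 0.22, and the 4 Coro1a probes were at -0.34, -0.09, -0.63 and 0.13, from the brightest to the dimmest.

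The 6 detected proximal tubule genes, led by Slc34a1 in signal, summed to 14210, 18410, 31810 and 37760 in Cd151+/+ and 44990, 28980, 26260 and 45970 in Cd151-/- mice 1 to 4. Cd151-/- mouse 4 had the highest and mouse 1 the next highest sum. Slc34a1 itself was highest in Cd151-/- mouse 1, at 15.02. In Cd151-/- mouse 4 it was at 14.47, below Cd151+/+ mice 3 and 4, at 14.61 and 14.75. Of the 8 detected tubule probes 5 were highest in Cd151-/- mouse 4 and 3 in mouse 1. Cd151+/+ mouse 4, at 37760 in this sum, was the lowest of all mice for the brightest H2-Ab1 probe. All 7 tubule probes detected in both genotypes had a higher mean in Cd151-/- mice, 3 of them at an unadjusted p of 0.05 and 0 after adjustment, with a median difference of 0.65. The probe of Lrp2 was detected in 2 Cd151-/- mice only and is left out of this count. Kap, the androgen-regulated protein of the proximal tubule, had 6.70, 8.37, 7.62 and 7.37 in Cd151+/+ mice 1 to 4 and 8.70, 7.99, 8.13 and 10.76 in Cd151-/- mice 1 to 4 and was highest in the same mouse as H2-Ab1. Slc22a6, the organic anion transporter, was highest there too, at 13.63 against 10.46 to 12.39 elsewhere. Without Cd151-/- mouse 4 their differences went from 1.38 to 0.76 and from 0.98 to 0.52. Of the 3 probes of Aqp1, the water channel, those with the smallest p-values differed by 1.09 and 0.65.

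Glomerular endothelial markers, 8 of 8 genes detected and Emcn the brightest, summed to 40180, 44400, 35870 and 34900 in Cd151+/+ and 24940, 33860, 44210 and 22850 in Cd151-/- mice 1 to 4, lowest in Cd151-/- mouse 4 and next lowest in mouse 1. Ehd3 differed by -0.63, Tek by -0.44, Cdh5 by -0.54 and Tie1 by -0.51, and 0 of 9 probes passed an unadjusted p of 0.05. The 4 podocyte markers that were read, with Cdkn1c the brightest, summed to 62270, 63580, 64860 and 62140 in Cd151+/+ and 53180, 61930, 64190 and 55700 in Cd151-/- mice 1 to 4, lowest in Cd151-/- mice 1 and 4. Of their probes 0 of 5 passed, those with the smallest p-values being of Ptpro, at -0.43 and -0.26, Podxl, at -0.31, and Cdkn1c, at -0.04. Of 7 probes of mesangium and smooth muscle, 1 of Acta2 was higher, at 0.71, and 1 of Pdgfrb lower, at -0.74, with an unadjusted p of 0.05, the next Acta2 probe differed by 0.50 and Myh11 by -0.52, and 0 passed adjustment. Of 3 erythroid probes, Alas2 and Hba-a1 were lower at that threshold, with differences of -2.57 and -0.69, Hbb-b1 was above background on 1 array, and 0 passed adjustment. The erythroid sums, with Hba-a1 the brightest, were 49200, 49520, 42650 and 37340 in Cd151+/+ and 17520, 35450, 37190 and 23900 in Cd151-/- mice 1 to 4, again lowest in Cd151-/- mice 1 and 4. With the background set blocked, where 11.3% of all tested probes were past an unadjusted p of 0.05, the probes past it went from 1 to 3 of 20 for interferon signalling and MHC control (Irf1 on 2 probes and Rfxank), from 0 to 1 of 17 for interferon-induced genes (Oasl2), of 18 for the standard proteasome (Psma3) and of 9 for endothelium (Ehd3), from 1 to 2 of 15 for leukocyte markers (Coro1a and Cd3g), from 2 to 3 of 7 for mesangium and smooth muscle, and from 1 to 2 Ii probes. In the other lists the number stayed as it was, and 0 probes of any list passed adjustment, with a smallest limma adjusted p of 0.349. The part of tubule, endothelial, podocyte, blood or leukocyte RNA in the class II values of Cd151-/- mouse 4 was not tested.

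**Figure D5:**
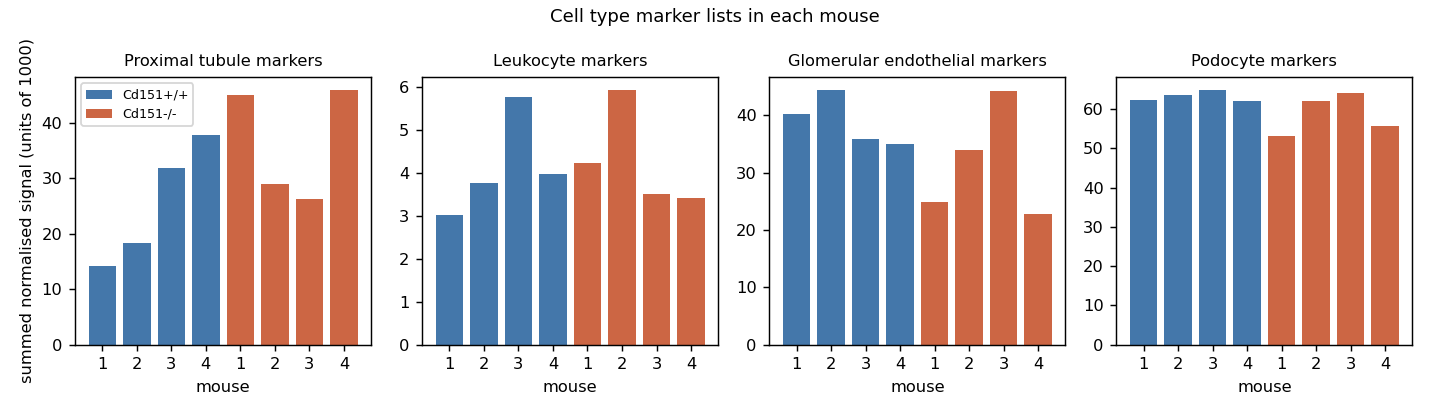
Summed normalised signal (vertical axis, in units of 1000, 1 probe a gene) of 4 marker lists in each of 4 Cd151+/+ and 4 Cd151-/- mice (horizontal axis, mouse number). Cd151-/- mouse 4, highest for class II, is the highest for proximal tubule, at 45970 and the lowest for glomerular endothelium, at 22850. The leukocyte sums separate by array background, with 3022 to 3777 on the lower set (Cd151+/+ mice 1 and 2, Cd151-/- mice 3 and 4) and 3979 to 5944 on the higher set.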

How the data were processed

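The authors amplified and biotin-labelled glomerular RNA, scanned the hybridised arrays on a BeadArray Reader and processed them in GenomeStudio, named in the submitters' processing notes without a version. The deposited table holds, per probe and array, the signal intensity, neither background-subtracted nor normalised, and a detection p-value against negative controls. Replicates were not pooled, and no column was left unassigned. In R 4.3.3 with limma 3.58.1, signals were corrected and quantile-normalised with neqc (offset 16, background from the detection p-values), and genotypes fitted with lmFit and eBayes over the 14967 probes that 1 array or more detected (detection p-value up to 0.05), with Benjamini-Hochberg adjustment over all of them. Exact permutation tests were two-sided over 70 relabelings, with 0.0286 the smallest p they can give. The number of arrays and the signal of detected probes, 3.00 to 4.46 times the background at each array's median, limit the precision. "Brightest" is the probe of a gene with the highest mean over the 8 arrays. A fold against a genotype in which no array detected the probe is a bound, computed against the lowest detected signal of each array or the probe's own signal where higher. It is firm only where every array of the other genotype detected the probe.

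Values in every mouse are given for the brightest probe of Cd151, the main class I, class II and peptide supply genes and the 6 members with the smallest p. Of other pathway genes and markers, the 4 smallest p-values of each list are named, with other genes chosen after their values were seen (Ifng, Cd80, H2-T23, H2-T10, H2-M3, H2-gs17, H2-DMa, H2-DMb1, H2-Oa, H2-Ke6, Irgm, the remaining leukocyte markers and second probes). Members and lists were chosen with earlier results of these data known, and H2-gs17 was put with the non-classical genes later. Alternatives were no normexp, a cubic spline through 15 quantiles, 75th percentile scaling, an offset of 50, no or stricter detection filters, mouse number or set of arrays as a block, trended and robust variance, array weights, and each mouse left out. Counts over probes detected in both genotypes were added after seeing the data. The tests were checked on simulated data, and no result given here rests on that check. Of the 48 symbols 44 matched RefSeq (GRCm38.p6) directly and 4 through a synonym. Promoter windows came from the same release. No gene positions on the arrays' own build were used, and the real-time PCR, protein and C57BL/6 experiments were not analysed here. Some podocyte and leukocyte markers are not reported here and were left out of those lists' sums and counts.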

Additional observations from a re-analysis of the deposited data

Results flagged for a closer look

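Within a genotype, 1 mouse stood apart from the other 3 in 6 of the 72 groups of 4 mice that were examined, 36 probes in 2 genotypes, by a gap that exceeds Dixon's 95% critical value. Chance gives such a gap in about 1 of 20 groups. Cd151+/+ mouse 3 was low for H2-DMa (6.53, the others from 7.58 to 7.69) and high for Tap2 (10.78, the next 10.09). Cd151+/+ mouse 1 was high for H2-Oa (6.16, the next 4.97). Cd151-/- mouse 3 was low for H2-Ke6 (11.82, the others from 12.32 to 12.38) and high for the dimmer Psme1 probe (11.57, the next 11.11). Cd151-/- mouse 1 was high for H2-K1 (5.27, the next 4.95), a probe near background.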

How the results depend on the processing

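No member passed Benjamini-Hochberg adjustment under any of the 18 alternatives, and the signs of H2-Ab1, Ii, B2m, Tap1, Tap2, Tapbp, Calr, Psmb8 and Psme2, on their brightest probes, held in all of them. At an unadjusted limma p of 0.05 the number of members moved from 0 to 2 with the background set of the arrays as a block and to 6 with array weights, and ran from 0 to 2 with a mouse left out, 2 (H2-Ab1 on its brightest probes) without Cd151-/- mouse 2, where 5.39% of all tested probes were past it, and 1 without Cd151-/- mouse 3, where 9.42% were. Array weights also raised the calls over all tested probes to 2336 higher and 2480 lower, and gave Tap1 -1.34, Tapbp -0.75 and the second Psmb10 probe -0.63, with adjusted p-values of 0.0926, 0.0908 and 0.0999, and moved Psmb8 to -0.57, Psme2 to -0.30, Calr to -0.12, the brighter Ii probe to 0.37, the next H2-Ab1 probe to 0.57 and the class II median to 0.29. The background set as a block gave 780 higher, 910 lower and 8 past adjustment. No detection filter gave 431 higher and 663 lower, and scaling to the 75th percentile 139 and 250. With a mouse left out, the counts ran from 122 to 628 higher and from 195 to 763 lower. Some small differences changed sign: Psme1 was 0.0069 with 75th percentile scaling, 0.20 with array weights, and -0.14 to 0.10 with a mouse left out, Psmb9 was 0.26 with array weights and -0.25 to 0.10 with a mouse left out, and the brighter Psmb10 probe -0.011 to 0.22 with a mouse left out. The causes were not tested. The median of the 8 class II probes was 0.22 without background correction, 0.33 with an offset of 50 and 0.31 with 75th percentile scaling. It ran from 0.06, without Cd151-/- mouse 4, to 0.83, without Cd151-/- mouse 3. Over other sets of class II probes the median was 0.15 for all 12, with no detection filter, and 0.13 for 5, with 1 probe a gene. The median of peptide supply ran from -0.29, with array weights, to -0.10, without Cd151-/- mouse 2. Among single genes with a mouse left out, B2m ran from 0.09 to 0.25, Tapbp from -0.70 to -0.32 and Psme2 from -0.24 to -0.09. Without Cd151-/- mouse 4, chosen after seeing the data, 5 of 8 class II probes were higher in place of 6, and 4 in place of 5 of the 7 detected in both genotypes.

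The genotypes share mouse numbers, and no source says that a number pairs animals. The deviations of same-numbered mice correlated at -0.58, -0.40, -0.53 and -0.01, and 0 of 4 mice were closest to their own number, but every same-numbered pair is split between the background sets, so this does not test pairing. With the number as a block, 0 members and 205 higher and 215 lower probes had an unadjusted p of 0.05, and H2-Ab1 an adjusted p of 0.998.

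The 8 arrays limit precision, and 24 of 60 member probes, near background, can show no difference.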
